A study of Mus musculus with 6 samples.

Results

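In the adrenal glands of mice lacking Armc5, 3354 unnamed transcripts that lie over named genes were examined. They were chosen by their counts and position: loci of the deposited count table that carry an assembly identifier and no gene name, hold 60 or more counts over the 6 libraries, and overlap the span of a named locus on the same chromosome. At this limit 4 of them held 60 counts, and 6 overlapping unnamed loci with 59 counts lay just outside, one of which (MSTRG.33096) had all 59 in KO replicate 3. They were 3354 of 6596 unnamed loci and of 59699 loci in all. By strand, 1686 overlapped named loci on their own strand only (same-strand transcripts), 1171 on the opposite strand only (opposite-strand transcripts) and 497 on both strands. The comparison was between 3 wild-type libraries (WT) and 3 knockout libraries (KO). The mice were females of 30 weeks with a 129 sv X CD1 background, and by the labels the groups differed in Armc5 genotype alone. The labels do not say which part of Armc5 was deleted, in which cells, or whether the 3 replicates of a group came from separate animals, so the p-values reflect the spread among these libraries, which may be technical.

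The adrenal gland has a steroid-producing cortex around a medulla of chromaffin cells, which make catecholamines. ARMC5 is the substrate-recognition part of a cullin 3 ubiquitin ligase that is known to target the largest subunit of RNA polymerase II, and inactivating mutations of the human gene cause nodular adrenal disease. Transcripts over a gene on its own strand are often pieces of intron or unprocessed RNA, alternative isoforms or read-through from a gene further up. Transcripts on the opposite strand include antisense RNA that starts at a bidirectional promoter and RNA that runs on past the end of a convergent neighbour. Assembled from reads, such loci get no gene name because no annotated gene matches their structure.

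Opposite-strand transcripts that cover the promoter of the gene they face are shown by that promoter, since the transcript runs through it in antisense. Of the opposite-strand transcripts, 126 covered a whole window of the 250 bases before a RefSeq start on the other strand, and 6 of the 126 were called at an edgeR adjusted p under 0.05 (1.86% of all loci were). The median log2 fold change of the 126 was 0.24. The 4 stretches shown, all taken from the windows of genes whose transcript was called, are printed 5′ to 3′ on the strand of the gene, from RefSeq on GRCm38.p6. Capitals mark a CCAAT box (CCAAT, or ATTGG on the other strand) or a GC box (GGGCGG, or CCGCCC). The Spout1 stretch is chr2:30178460-30178709 on the minus strand, and that of Ctdsp2 is chr10:126978467-126978716 on the plus strand. The 1700013F07Rik stretch is chr3:108537334-108537540 on the plus strand, and that of Nsun4 is chr4:116053877-116054061 on the minus strand. The Nsun4 and 1700013F07Rik windows were shortened by 65 and 43 bases that lie in an untranslated region.
Spout1: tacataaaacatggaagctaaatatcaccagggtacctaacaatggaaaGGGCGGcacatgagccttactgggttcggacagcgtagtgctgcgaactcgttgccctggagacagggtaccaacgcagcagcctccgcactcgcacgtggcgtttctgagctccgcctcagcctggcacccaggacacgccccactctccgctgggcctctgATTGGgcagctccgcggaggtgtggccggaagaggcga
Ctdsp2: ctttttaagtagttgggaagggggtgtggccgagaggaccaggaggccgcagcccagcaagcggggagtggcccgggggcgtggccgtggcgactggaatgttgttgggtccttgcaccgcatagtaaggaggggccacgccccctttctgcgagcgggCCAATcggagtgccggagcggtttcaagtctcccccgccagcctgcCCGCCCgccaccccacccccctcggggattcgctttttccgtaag
1700013F07Rik: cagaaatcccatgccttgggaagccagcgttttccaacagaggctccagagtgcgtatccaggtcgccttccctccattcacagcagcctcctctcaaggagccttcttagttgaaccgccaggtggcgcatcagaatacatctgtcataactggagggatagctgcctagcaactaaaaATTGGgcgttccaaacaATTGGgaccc
Nsun4: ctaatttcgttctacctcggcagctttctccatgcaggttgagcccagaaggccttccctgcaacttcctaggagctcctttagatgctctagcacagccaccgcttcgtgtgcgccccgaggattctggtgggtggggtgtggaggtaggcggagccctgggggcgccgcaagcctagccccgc
In all 32851 RefSeq windows of 250 bases, 33.8% held the CCAAT box on either strand, 32.7% held the GC box and 12.4% held the TATA box (TATAAA), of which none of the 4 stretches held a copy. These matches describe letters and say nothing of a factor.

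Armc5 itself had 2763, 3263 and 2233 counts in the WT libraries and 395, 269 and 473 in the KO libraries, with no overlap. In CPM, the counts scaled to effective library size, that was 26.8 ± 1.35 (SD, n = 3) against 3.59 ± 0.0632. The log2 fold change was -2.90 (SE 0.106), with an adjusted p of 0.000514 by edgeR. No unnamed transcript overlapped Armc5. The libraries held 70547288 to 130573434 counts. Mitochondrial loci took 14.8 to 17.6% of counts in WT and 13.2 to 13.7% in KO. The 6 steroidogenic markers summed to 27024 to 47236 CPM in WT and 22450 to 23805 CPM in KO, with 0 of 6 called, and the 6 chromaffin markers to 1781 to 2550 against 3685 to 4086 CPM, with 2 of 6 called higher. The 6 hepatocyte markers, which mark liver, summed to 3598 CPM in KO replicate 3 and to 109 to 176 CPM in the other 5 libraries. None of the markers in these lists was at 0. In bulk tissue, fewer cells of a type and less RNA per cell cannot be told apart, and the part of these shifts in the results that follow was not tested.

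Unnamed overlapping transcripts took a larger share of every KO library than of any WT library. Their share of all counts was 1.01, 1.15 and 1.12% in the WT libraries and 1.38, 1.54 and 1.31% in the KO libraries. The share was 1.09 ± 0.0739% (SD, n = 3) in WT and 1.41 ± 0.118% in KO. All unnamed loci together, these included, took 1.39, 1.56 and 1.52% in WT and 1.84, 2.04 and 1.77% in KO. A larger share in KO was thus not shown to be particular to the transcripts that overlap genes. The same-strand class stood at 0.491, 0.600 and 0.569% in WT and 0.730, 0.846 and 0.666% in KO. Opposite-strand transcripts stood at 0.301, 0.316 and 0.311% against 0.383, 0.389 and 0.373%. Transcripts with genes on both strands stood at 0.217, 0.234 and 0.239% against 0.269, 0.307 and 0.273%. In each class the groups did not overlap, and a two-sided exact permutation test of 3 against 3 libraries cannot go below p = 0.10. The plot of shares per library shows the same separation in all 3 classes.

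**Figure D1:**
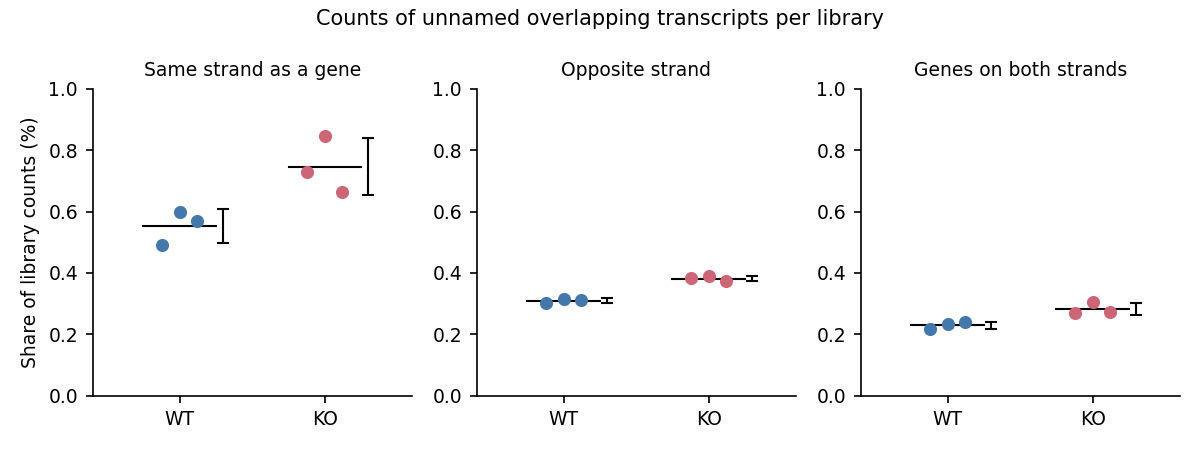
Share of each library's counts in unnamed transcripts that overlap a named locus, in percent, for same-strand, opposite-strand and both-strand transcripts. Points are single libraries, lines are group means and bars are 1 SD (n = 3). The KO libraries lie above the WT libraries in each panel, at 0.666 to 0.846% against 0.491 to 0.600% for the same strand.

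Most of these transcripts were higher in KO, by a small amount, and few passed the test. Of the 3354, 3315 passed the filter on low counts and were tested (39, with 62 to 1318 counts, did not). A transcript was called at an edgeR quasi-likelihood adjusted p under 0.05, adjusted over all 26467 loci tested. Called transcripts numbered 77, of which 75 rose and 2 fell, or 2.32% of those tested, against 1.86% of all loci (1.52% higher and 0.34% lower) and 1.81% of named loci. Beyond the call, 2435 (73.5%) had a log2 fold change above 0, where 53.1% of all loci and 49.3% of named loci did. The median log2 fold change was 0.33, with quartiles of -0.03 and 0.76, against 0.04 over all loci and -0.01 over named loci. The groups did not overlap, with KO higher, for 836 transcripts (25.2%, against 17.6% of all loci) and with KO lower for 129 (3.89%, against 12.3%). Of the 3315 tested transcripts, 728 had an unadjusted p under 0.05, a share close to that of all loci (5744 of 26467). Members passing the low-count filter through KO alone had to be higher there, so these counts describe the tested set.

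The same-strand class was shifted most. Of 1675 same-strand transcripts tested, 44 rose and 0 fell (2.63%), and the median log2 fold change was 0.38. Of 1149 opposite-strand transcripts, 26 rose and 0 fell (2.26%), with a median of 0.26. Of 491 both-strand transcripts, 5 rose and 2 fell (1.43%), with a median of 0.32. Among the 1720 tested unnamed transcripts that overlap no named locus, 27 rose (1.57%) and the median was 0.16. The difference between classes was not tested. The cumulative curves lie to the right of the named loci in all 3 classes.

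**Figure D2:**
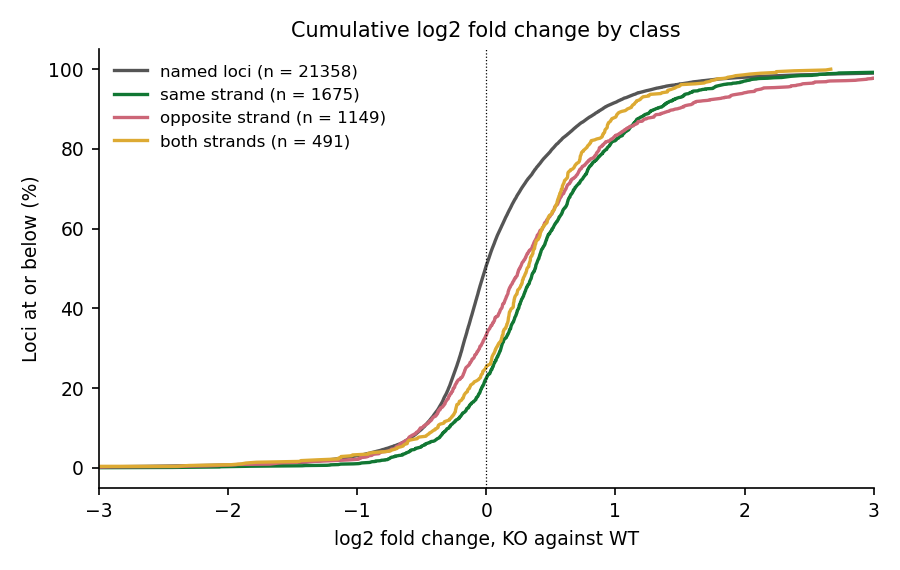
Cumulative share of loci, in percent, at or below a log2 fold change (KO against WT), for named loci and for the 3 strand classes. The curves of the unnamed transcripts lie to the right of the curve of named loci, which crosses 0 near its middle, and the same-strand curve has a median of 0.38.

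At every level of expression the medians of the 3 classes were above that of named loci, which was itself above 0 under 2 CPM. Of 21358 named loci tested, 13685 were at 2 CPM and above, against 585 of 1675 same-strand and 322 of 1149 opposite-strand transcripts. The medians over all levels given above thus compare sets of unlike level. In loci of 2 CPM and above, the median log2 fold change was -0.07 for named loci, 0.30 for same-strand and 0.15 for opposite-strand transcripts. Between 0.5 and 2 CPM it was 0.21, 0.36 and 0.27, and under 0.5 CPM it was 0.25, 0.57 and 0.38. In the top bin, 3.93% of same-strand and 3.42% of opposite-strand transcripts were called, against 1.32% of both-strand transcripts (3 of 227) and 2.29% of named loci. The both-strand median was 0.23 in that bin, 0.42 between 0.5 and 2 CPM and 0.34 under 0.5 CPM. For same-strand transcripts the median was 0.31 in genes under 50 kb (5 of 347 called), 0.38 in genes of 50 to 200 kb (14 of 480) and 0.41 in genes of 200 kb and above (25 of 848). Opposite-strand transcripts showed no such order, with medians of 0.27, 0.31 and 0.24 and 2.90%, 1.17% and 2.42% called, against 1.86% of all loci.

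All 77 called transcripts had no overlap between the groups, 68 changed at least 2-fold and 40 at least 4-fold. The median log2 fold change of the called was 1.54 on the same strand and 2.97 on the opposite strand, values that the call itself selects. In 4 of them all 3 WT libraries had 0 counts. The count depended on single libraries and on the model. With WT 1 left out 38 were called, with WT 2 76, with WT 3 5, with KO 1 1, with KO 2 7 and with KO 3 5. The 38 held 26 of the 77, and 31 of the 38 rose. The 76 held 50 of the 77, and 72 of the 76 rose. With WT 1 left out, 15 of 17 called same-strand and 14 of 17 called opposite-strand transcripts rose, so both classes then held falls. DESeq2 called 416, and scaling by total counts or by equal Rn7sk counts gave 162 and 175. Under those 2 scalings the median of the transcripts was 0.55 and 0.52, where that of named loci was 0.22 and 0.19. Only MSTRG.6359, in 2610035D17Rik, was called in all 6 of the fits with 1 library left out, so every other called transcript lost its call with KO 1 left out. Of the 77, 23 were called in none of the 6.

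The structure of the 3 classes differed. Same-strand transcripts had a median span of 2518 bases and 59.4% were 1 block with no splice. Of them, 1625 (96.4%) lay inside the gene and 1569 (93.1%) shared no base with an annotated exon of it, by GENCODE M21. Opposite-strand transcripts had a median span of 1142 bases, 83.9% were 1 block, 903 (77.1%) lay inside the gene, and 157 reached over the 5′ end of the gene and 83 over its 3′ end. Both-strand transcripts had a median span of 9286 bases. The partner was protein-coding for 86.8% of the same-strand and 84.9% of the opposite-strand class. All 44 called same-strand transcripts lay inside their gene between its exons. Of the 26 called opposite-strand transcripts, 11 lay inside between exons, 8 inside over exons, 4 over the 5′ end, 2 over the 3′ end and 1 over both ends.

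The reads of overlapping genes may not be told apart. The library kit is directional per the labels, but no source at hand says whether the counting used strand. Per base, same-strand transcripts held a median of 0.373 of the counts of their gene and opposite-strand transcripts 0.235. Of 58 opposite-strand transcripts lying wholly over exons, the median was 28.6% of the gene's counts per base, and 16 exceeded the gene.

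The gene with the most called transcripts was 2610035D17Rik, a long non-coding RNA gene on the minus strand at chr11:113042562-113201877 (coordinates from the deposited table, GRCm38). The gene itself had 56, 32 and 11 counts in WT and 588, 443 and 619 in KO, a log2 fold change of 4.07 (SE 0.506, adjusted p = 0.0235). Of its 7 unnamed transcripts, 6 were called and log2 fold changes ran from 3.93 to 5.65. They share one gene, so they are not independent. Their summed level was 1.01 to 1.08 CPM in WT and 25.2 to 30.4 CPM in KO.
MSTRG.6360 (chr11:113128737-113139631) had 14, 36 and 6 counts in WT and 774, 548 and 700 in KO. The groups did not overlap, at 0.164 ± 0.104 CPM against 6.53 ± 0.980 CPM, a log2 fold change of 5.27 (SE 0.483, adjusted p = 0.0161). MSTRG.6361 had 3, 19 and 6 against 376, 193 and 347 counts, and a log2 fold change of 5.04 (adjusted p = 0.0169). In both, every KO library was above every WT library.
MSTRG.6359 had 19, 22 and 17 counts against 407, 295 and 326, and a log2 fold change of 4.14 (SE 0.271, adjusted p = 0.00494). Its adjusted p stayed between 0.0141 and 0.0402 when 1 library was left out. MSTRG.6363, nearest the start of the gene, had 52, 45 and 27 counts against 907, 504 and 2000. MSTRG.6358 had 5, 0 and 0 counts against 75, 98 and 88 and was not called (adjusted p = 0.0520). The log ratio of MSTRG.6360 to the gene differed between groups by 1.11 (limma adjusted p = 0.276), so it and the gene were not shown to change by different amounts.

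Of the called opposite-strand transcripts, 4 lay in a row around Duox1, an NADPH oxidase gene on the plus strand that makes hydrogen peroxide. They follow each other on the minus strand, between Shf and Duoxa1, which encodes a maturation factor of the DUOX enzymes. MSTRG.19419 (chr2:122337920-122344940) had 25, 38 and 6 counts in WT and 1184, 882 and 1160 in KO. Every KO library was above every WT library, and the log2 fold change was 5.62 (SE 0.483, adjusted p = 0.0130). It begins 3952 bases past the end of Shf, whose own log2 fold change was 0.60 (adjusted p = 0.119).
MSTRG.19418 had 0, 3 and 0 counts against 357, 282 and 459, a count ratio per library size of 360, with a 95% exact interval of 123 to 1747 that covers counting error only (adjusted p = 0.0126). MSTRG.19417 had 0, 0 and 0 counts against 111, 145 and 122, which is at least 124-fold higher when WT is set to 3 counts for the 3 libraries together (adjusted p = 0.0224). MSTRG.19415, which lies inside the deposited spans of both Duox1 and Sord and was paired with Sord, had 0, 0 and 0 counts against 88, 56 and 59. That was at least 66.5-fold higher (adjusted p = 0.0235). With 1 library left out, MSTRG.19419 was called in 4 of the 6 fits, MSTRG.19418 in 3 and the other two in 2 each, with adjusted p up to 0.120. These 4 were low or at 0 in WT and present in all 3 KO libraries. Between them lies MSTRG.19416, which with 54 counts stayed under the limit of 60 and had 0, 0 and 0 counts in WT and 13, 26 and 15 in KO.
Further on, Duoxa1 had 0, 0 and 0 counts against 114, 74 and 92 (adjusted p = 0.0169) and Duox2, another DUOX oxidase, had 0, 5 and 5 against 187, 149 and 176 (log2 fold change 5.63, adjusted p = 0.0279). Duox1 itself, on the other strand, had 0, 6 and 0 counts against 4, 2 and 11 and was not tested. Sord, which encodes sorbitol dehydrogenase, had a log2 fold change of -0.08 (adjusted p = 0.868). The map of the Duox1 and 2610035D17Rik regions shows the order of the loci.

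**Figure D3:**
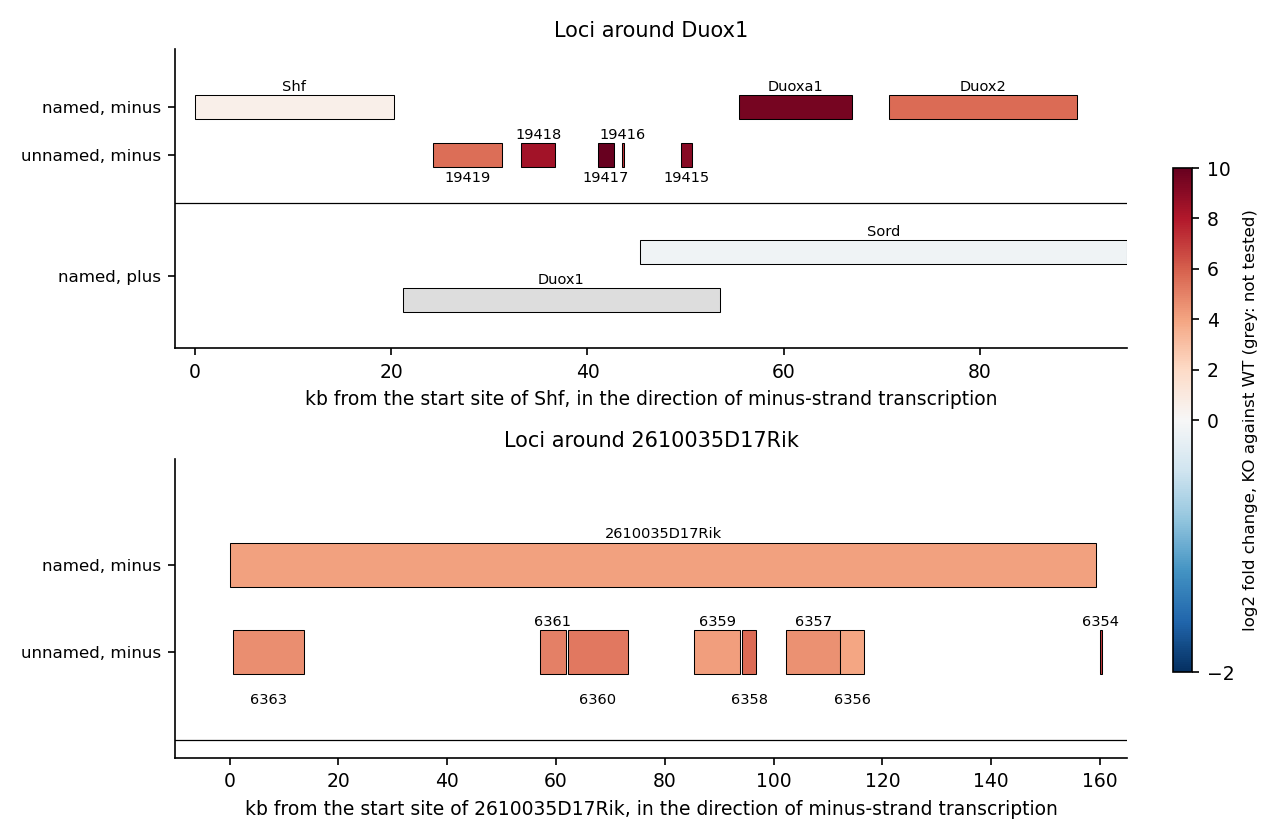
Loci around Duox1 (top) and 2610035D17Rik (bottom), drawn to scale in kb from the start of the first gene in the direction of the minus strand, coloured by log2 fold change (KO against WT; grey was not tested). The unnamed minus-strand transcripts lie in a row past Shf, with changes of 5.62 to 10.1, and inside 2610035D17Rik, with changes of 3.93 to 5.65.

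A second row lay on the minus strand of chromosome 3. MSTRG.21930 (chr3:108537258-108542863), opposite to 1700013F07Rik, had 0, 6 and 6 counts in WT and 754, 563 and 881 in KO. No WT library reached any KO library, at 0.0404 ± 0.0377 CPM against 7.01 ± 0.329 CPM, and the log2 fold change was 7.44 (SE 0.726, adjusted p = 0.0167). It was called in 2 of the 6 fits with 1 library left out, with an adjusted p of up to 0.0864. The log ratio to 1700013F07Rik, which stayed at 15, 23 and 7 against 15, 10 and 17 counts, differed by 7.16 (limma adjusted p = 0.0122).
MSTRG.21931, a neighbour that overlaps no named locus, had 9, 21 and 14 against 997, 704 and 1209 counts (log2 fold change 6.01, adjusted p = 0.00183). Gm37859 had 0, 8 and 3 against 110, 81 and 153 (adjusted p = 0.0395). MSTRG.21927, on the same strand inside 5330417C22Rik, had 9, 9 and 0 counts against 207, 106 and 218 (log2 fold change 4.86, adjusted p = 0.03997). Its log ratio to the gene differed by 4.95 (limma adjusted p = 0.00776), and the gene itself had a log2 fold change of -0.15 (adjusted p = 0.821). Scarna2, up the same strand, had a log2 fold change of -0.25 (adjusted p = 0.193).

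Near Spout1, a SPOUT-domain methyltransferase gene, transcript and gene moved in opposite directions. MSTRG.18257 (chr2:30175261-30183073) runs through the Spout1 promoter printed above and had 0, 19 and 11 counts in WT and 1235, 911 and 1232 in KO. The log2 fold change was 6.82 (SE 0.863, adjusted p = 0.0250; up to 0.130 with 1 library left out) and the groups did not overlap. Spout1 had 1742, 2068 and 1449 counts against 954, 675 and 894, a log2 fold change of -1.07 (adjusted p = 0.0261). The log ratio of transcript to gene differed by 8.17 (limma adjusted p = 0.0144). The transcript starts 1192 bases past the end of Endog, the mitochondrial endonuclease G gene on the same strand, which had 679, 637 and 543 counts against 1513, 1046 and 1757 (log2 fold change 1.16, adjusted p = 0.0300).

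Other opposite-strand transcripts lay over genes of varied function. MSTRG.35543, over Nicn1, had 0, 0 and 0 counts in WT and 36, 62 and 75 in KO, at least 56.7-fold higher (adjusted p = 0.0381). MSTRG.35545, over Amt, a part of the glycine cleavage system, had 175, 301 and 124 against 870, 508 and 798 (log2 fold change 1.88, adjusted p = 0.0207) and starts 882 bases past Tcta. The gene Amt had a log2 fold change of 0.08 (adjusted p = 0.902).
MSTRG.5260, inside the deposited span of Trp53, the tumour suppressor gene, had 9, 3 and 9 counts against 77, 94 and 88 (log2 fold change 3.57, adjusted p = 0.0465). That span (chr11:69580359-69632409) also holds Atp1b2, a subunit of the sodium pump, and MSTRG.5260 shared no base with an annotated exon of Trp53. MSTRG.5260 starts 355 bases past Atp1b2, which rose by a log2 fold change of 2.64 (adjusted p = 0.000514). The Trp53 locus had -0.17 (adjusted p = 0.337). MSTRG.31545, over Gm39094, had 9, 9 and 15 counts against 654, 160 and 974 (log2 fold change 5.52, adjusted p = 0.0207).
MSTRG.4120 covers the promoter of Ctdsp2, a phosphatase gene, and had 58, 48 and 42 counts against 214, 173 and 260 (log2 fold change 2.08, adjusted p = 0.0207). On the same strand, MSTRG.30087 in 5430431A17Rik had 0, 0 and 0 counts against 58, 42 and 72, at least 56.4-fold higher (adjusted p = 0.0207).
By distance past the nearest named gene on their own strand, 6 of 418 opposite-strand transcripts within 5 kb were called (1.44%), 12 of 371 at 5 to 50 kb (3.23%) and 8 of 352 beyond 50 kb (2.27%). In 2 of the 6 nearest, the gene before them was called too. The plot of the largest changes shows each library.

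**Figure D4:**
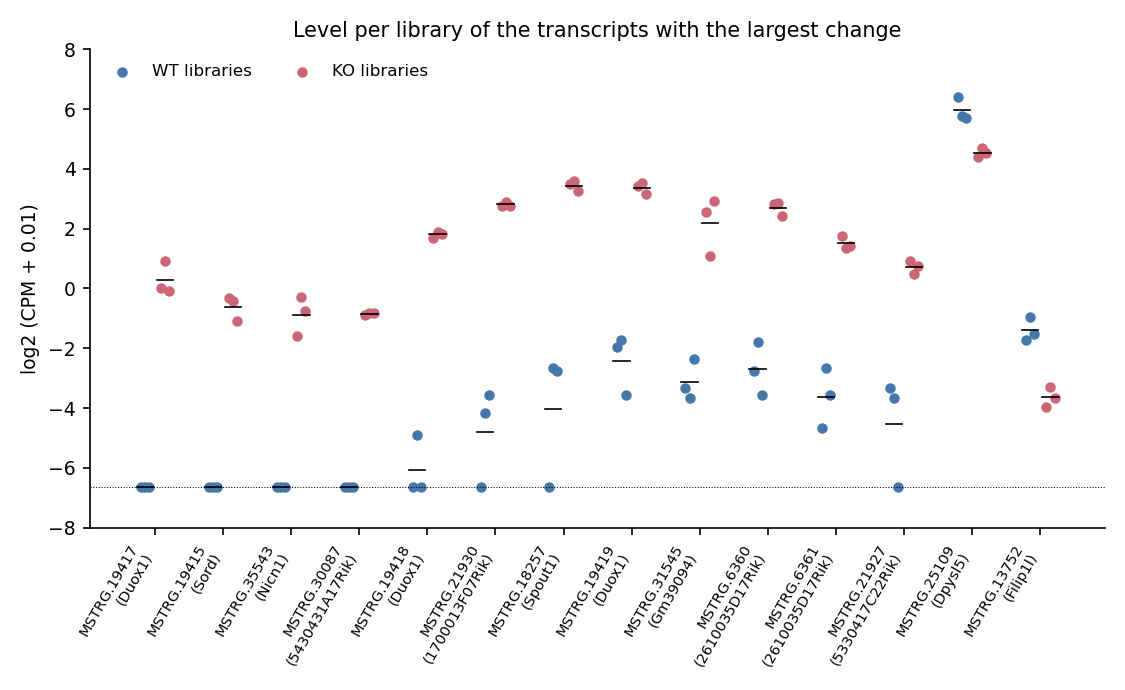
Level per library, as log2 (CPM + 0.01), of the 12 called transcripts with the largest rise and the 2 that fell, with the gene each overlaps in brackets. Points are single libraries (3 WT, 3 KO), lines are group means on this scale and the dotted line marks 0 counts. WT and KO do not overlap in any column, and 4 transcripts are at 0 in all WT libraries.

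Some genes held several called transcripts on their own strand, a few of which also face another locus. Grip1, a glutamate receptor scaffold gene, held 19 transcripts, all 19 above 0, 3 called, with sums of 6.04 to 8.54 CPM in WT and 17.4 to 24.5 CPM in KO. Kirrel3, an adhesion gene, held 12, all above 0, 2 called, with sums of 6.002 to 7.98 against 15.9 to 26.4 CPM, and the gene rose by 1.42 (adjusted p = 0.0244). Pde4d, a cAMP phosphodiesterase gene, held 13, all above 0, 2 called, with sums of 3.95 to 4.88 against 10.2 to 13.2 CPM. These 3 genes were picked because they hold called rises, so their sums are a description.
Slit2, a secreted axon guidance gene, held MSTRG.25405, with 345, 237 and 234 counts in WT and 2296, 2095 and 2301 in KO. Its log2 fold change was 3.02 (SE 0.290, adjusted p = 0.0167), and its log ratio to Slit2 differed by 2.07 (limma adjusted p = 0.0224), where the gene had 0.95 (adjusted p = 0.0513). Chromaffin markers moved with these genes, at 3685 to 4086 CPM in KO against 1781 to 2550 CPM in WT, and their part was not tested.

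Genes holding the most transcripts did not behave alike. Lsamp, with 39, had 34 above 0, 1 called and sums of 51.7 to 77.0 CPM against 70.7 to 113 CPM, which overlap. Erbb4, the neuregulin receptor gene merged with Gm16076, had 23 of 25 above 0, none called, and sums of 18.0 to 24.98 against 31.4 to 40.0 CPM, which do not. Csmd1 had 14 of 30 above 0. Lrmda had 0 of 22 above 0, a median of -0.69 on the log2 scale and none called.
Nrg1, a neuregulin ligand gene, had 31 tested transcripts, all above 0 with a median of 2.05, and none was called. Their sums were 14.4, 0.271 and 0.473 CPM in WT and 0.815, 52.5 and 14.98 CPM in KO, so the groups overlap and single libraries set the level. In all, 2139 named loci paired with a transcript, 1621 with 1 only, and 59 held a called one.

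Transcripts were more often above their gene than below it, and 25 of the 44 pairs called as unequal were on the opposite strand. Among 3057 transcripts whose gene was tested too, the median log2 fold change was 0.35 for the transcript and -0.01 for the gene, and the transcript was above its gene in 72.5%. Transcript and gene were not matched on level. Named loci also had medians above 0 at low level (0.25 under 0.5 CPM, 0.21 at 0.5 to 2 CPM), against -0.07 at 2 CPM and above. The part of level in the 72.5% was not tested. In a limma test of the log ratio of transcript to gene over all 13127 overlapping pairs, 44 of the 3057 were called (1.44%, against 1.17% of all pairs). Of the 44, 39 were higher relative to the gene in KO and 5 lower (1.07% and 0.2% of all pairs of an unnamed and a named locus). Of the 3057, 591 had an unadjusted limma p under 0.05, and the share over all pairs is not given here. By class, 11 of 1611 same-strand, 25 of 985 opposite-strand and 8 of 461 both-strand pairs were called. Across transcripts, Spearman's rho between transcript and gene was 0.48 on the same strand, 0.045 on the opposite strand and 0.18 for both strands. These pairs share libraries, and genes are not replicates, so rho is a description.
Of the 70 called transcripts whose gene was tested, 11 had a gene called in the same direction, 10 of them on the same strand, and 2 a gene called in the opposite direction. Counted over transcripts, of which several share a gene, the gene was below 0 for 17 of 21 called opposite-strand transcripts and above 0 for 36 of 42 called same-strand transcripts. Over all tested pairs, the median of the genes was -0.06 for the opposite strand and 0.06 for the same strand.

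**Figure D5:**
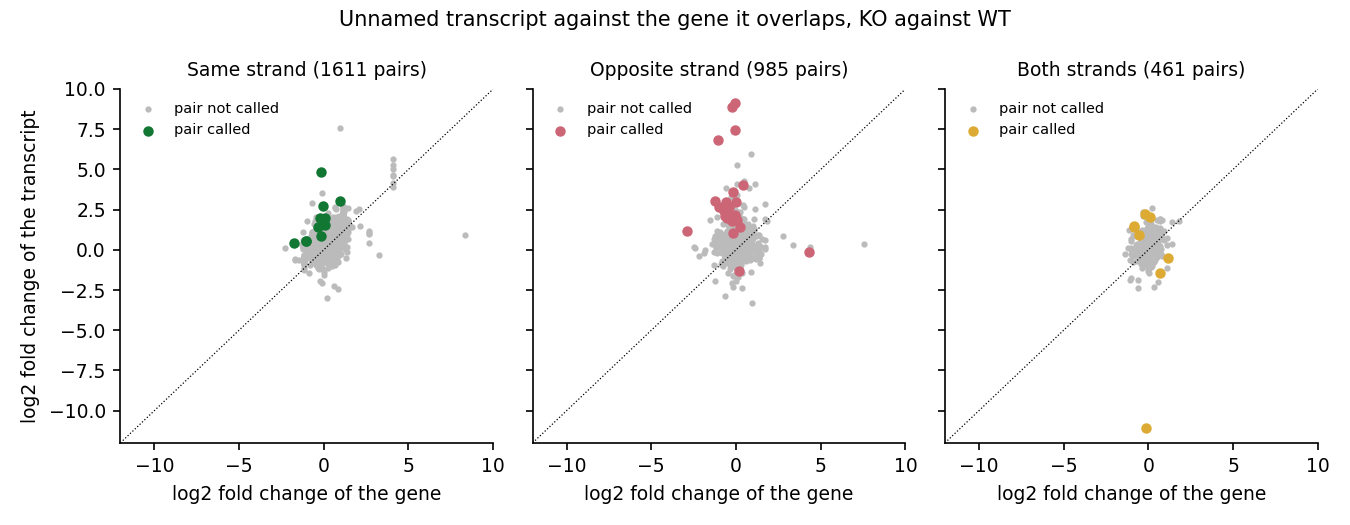
Log2 fold change (KO against WT) of each transcript against that of the gene it overlaps, for 1611 same-strand, 985 opposite-strand and 461 both-strand pairs. Coloured points are the 11, 25 and 8 pairs called by the log ratio test, and the dotted line marks equal change. Called opposite-strand pairs lie mostly above the line.

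Among these pairs, MSTRG.23604 covers the start of Nsun4, a mitochondrial RNA methyltransferase gene, whose promoter stretch is printed above. It had 97, 161 and 68 counts in WT and 510, 321 and 528 in KO, with a log2 fold change of 2.08 (adjusted p = 0.0167), while Nsun4 had -0.63 (adjusted p = 0.0555). The log ratio differed by 2.70 (limma adjusted p = 0.00786). MSTRG.34685 lies opposite to Cyp11a1, the gene of the first enzyme of steroid synthesis, in a locus merged with Gm17322 and Gm10657. It had 64, 87 and 66 counts against 821, 235 and 822, with no overlap, and a log2 fold change of 2.99 (SE 0.367, adjusted p = 0.0230). The merged locus had -0.58 (adjusted p = 0.132), and the log ratio differed by 3.43 (limma adjusted p = 0.0122).
MSTRG.34291, with genes on both strands including Gramd1b, which carries cholesterol to the endoplasmic reticulum, had 588, 573 and 452 counts against 3275, 1472 and 2122 (log2 fold change 2.04, adjusted p = 0.0235, ratio difference 1.88, limma adjusted p = 0.0122). In each of these 3 transcripts every KO library was above every WT library.
A ratio can also be lower in KO. MSTRG.8125, sharing 1 base with Dio3, the thyroid-hormone-inactivating deiodinase gene, had 121, 58 and 56 counts against 38, 124 and 25 and was not called (log2 fold change -0.13). Dio3 had 80, 42 and 38 against 805, 1346 and 841 counts and rose (log2 fold change 4.31, adjusted p = 0.0263), so the log ratio fell by 4.76 (limma adjusted p = 0.00776). MSTRG.8512, named after its values were seen, over Cdk13, a kinase of the RNA polymerase II tail, and other loci on both strands, had 37, 454 and 323 counts in WT and 0, 0 and 0 in KO. That was at least 276-fold lower when KO is set to 3 counts for the 3 libraries together, but it was not called (adjusted p = 0.0707), and its ratio to Cdk13 fell by 6.38 (limma adjusted p = 0.0274).

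The 2 called falls were both in transcripts with genes on both strands. MSTRG.25109, over Dpysl5, had 8494, 7096 and 4183 counts in WT and 2346, 1956 and 2999 in KO, at 63.6 ± 17.6 against 23.4 ± 2.22 CPM. Its log2 fold change was -1.45 (adjusted p = 0.0329), and its log ratio to Dpysl5 fell by 2.12 (limma adjusted p = 0.0460). MSTRG.13752, over Filip1l, had 30, 65 and 27 against 6, 7 and 9 counts (log2 fold change -2.40, adjusted p = 0.0498). It lost its call with any 1 library left out, with an adjusted p of up to 0.193, and MSTRG.25109 kept it in 2 of the 6 fits.

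None of the abundant transcripts described here was called, and their signs differed. On the same strand, MSTRG.17212 in Pcsk5, a convertase gene, had 253, 163 and 198 against 111, 234 and 107 CPM (log2 fold change -0.44, adjusted p = 0.491). MSTRG.34901 in Rora, a nuclear receptor gene, had 103, 110 and 107 against 68.1, 85.1 and 65.3 CPM (-0.55, adjusted p = 0.0708). The groups overlapped for the first and not for the second. MSTRG.19647 in Plcb1, a phospholipase gene, had a log2 fold change of 0.08 (adjusted p = 0.879), and MSTRG.19230 in Meis2 had -0.04 (adjusted p = 0.961).
On the opposite strand, MSTRG.35948 had 622, 530 and 556 against 399, 308 and 482 CPM (-0.52, adjusted p = 0.165). It lay inside the deposited span of mt-Tt, a mitochondrial tRNA gene (MT:15289-16299), and shared no base with an annotated exon of that gene. MSTRG.23124 facing Slc31a2, a copper transporter gene, had 54.4, 50.9 and 52.5 against 32.0, 30.0 and 40.8 CPM (-0.62, adjusted p = 0.0712). It shared no base with an annotated exon of Slc31a2. It starts 877 bases past Alad, which had -0.69 (adjusted p = 0.0941). MSTRG.35948 and MSTRG.23124 were lower in every KO library. The share of named mitochondrial loci in the counts of named loci was lower there too, and its part in the value of MSTRG.35948 was not tested. MSTRG.17085 facing Fads3, a gene of the fatty acid desaturase family, had 65.1, 64.2 and 32.3 against 62.8, 91.5 and 92.9 CPM (0.61, adjusted p = 0.288), and the groups overlapped. It starts 2110 bases past Fads2, which had -0.41 (adjusted p = 0.436). The part of Alad and Fads2 in these values was not tested. MSTRG.25105 facing Gm9899 had -0.49 (adjusted p = 0.339) and MSTRG.22526 facing Gm37386 had -0.91 (adjusted p = 0.536).

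Transcripts over steroid and chromaffin genes other than Cyp11a1 were not called. MSTRG.21712, opposite to the Hsd3b1 locus, had 494, 453 and 298 counts against 202, 244 and 232 (log2 fold change -0.83, adjusted p = 0.177). MSTRG.12218, over Cyp11b1 and Cyp11b2, had 231, 345 and 176 against 408, 172 and 461 (0.41, adjusted p = 0.363). MSTRG.7979, opposite to Chga, the chromogranin A gene, had 53, 145 and 42 against 126, 94 and 108 (0.56, adjusted p = 0.434), where Chga rose by 0.87 (adjusted p = 0.0407). The last 2 overlapped between groups.

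Factors of transcript termination and nuclear RNA decay were measured beside them. The list held 45 names, in which Skiv2l2, Ars2 and Cpsf3l are other names of Mtrex, Srrt and Ints11, also listed. The 42 genes were all found and tested, and 0 were called by edgeR (1.86% of all loci were). Of them, 4 had an unadjusted p under 0.05, as had 5744 of all 26467 loci tested. Of the 42, 34 were below 0, a median of -0.10 on the log2 scale and a range of -0.76 to 0.47. Named loci of 2 CPM and above had a median of -0.07, so the median of this list lies near that background. The share of those loci below 0 is not given here, so the 34 of 42 have no matched background. Of all named loci tested, 49.3% were above 0. Xrn2, the exonuclease of termination, had 68.1 ± 2.11 CPM against 66.2 ± 5.39 CPM (-0.04, adjusted p = 0.832). Pcf11, a termination factor, had 0.22 (adjusted p = 0.303), and Zfc3h1, a part of the polyA-tail exosome targeting complex, had -0.28 (adjusted p = 0.150). Polr2a, the largest subunit of RNA polymerase II, had 290 ± 59.2 against 227 ± 19.4 CPM (-0.36, adjusted p = 0.273), and Rn7sk, a polymerase III transcript, had -0.20 (adjusted p = 0.454).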

How the data were processed

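Total RNA from adrenal glands was depleted of rRNA and sequenced as paired reads of 100 bases, with 3 WT and 3 KO libraries. Per the submitters' processing notes, the tools were StringTie, STAR, Picard, edgeR and Trimmomatic, on GRCm38. Their versions, the counting program and its strand setting are not stated in any source at hand. The authors deposited 1 table with whole-number counts per locus and sample, which were the values tested. The log2 CPM and Rn7sk-scaled log2 values that the authors deposited beside them were not used for results, and the deposited locus and exon lengths served for spans and counts per base.

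Loci with an assembly identifier and no name were taken as unnamed. The table was fitted with edgeR 4.0.16 (R 4.3.3, quasi-likelihood, robust, two-sided, Benjamini-Hochberg over 26467 loci), with library sizes and TMM factors from named loci. CPM use these sizes. Log ratios of 13127 overlapping pairs (log2 CPM, prior count 2) were tested with limma 3.58.1. Calls needed an adjusted p under 0.05. The tests were also run on simulated counts, drawn independently with the same dispersion for every locus. That setting is simpler than these data, so it does not cover their spread between libraries or transcripts that share a gene. Library totals of 70547288 to 130573434 counts limit precision at low counts; intervals and floors cover counting error only. Exons came from GENCODE M21, which gave the same start and end for 94.78% of 51353 single-gene loci.

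Transcripts were named by rule: the 12 largest called rises and falls, the 5 most abundant per strand, the 6 smallest pair p-values, and those over steroid and chromaffin genes; regions and genes beside them were described after their values were seen. The members and lists were chosen with earlier results of these data known. Sequences of the transcripts themselves were not used here, and some transcripts that the rule names are not reported here. Alternatives were other size factors, filters, DESeq2 1.42.0, limma-voom, a replicate block and left-out libraries. Same-numbered WT and KO libraries showed no shared deviation from their group means (r of -0.10, -1.2e-05 and -0.13). With 3 libraries a group, each centred on its own mean, this check cannot exclude that the numbers pair libraries.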

Additional observations from a re-analysis of the deposited data

How the results depend on the processing

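Direction held for the medians, but counts of called transcripts depend on the libraries and the model. Against 77 called (491 of all loci), total counts alone gave 162 and equal Rn7sk counts gave 175, where the median of named loci rose to 0.22 and 0.19. The same-strand, opposite-strand and both-strand classes gave 87, 57 and 18 under total counts and 100, 56 and 19 under equal Rn7sk counts. Their medians were 0.61, 0.48 and 0.54, and 0.57, 0.46 and 0.51, with 0.55 and 0.52 for all transcripts. DESeq2 called 416 (211, 139 and 66 by class). Limma-voom gave 83, DESeq2's size factors in edgeR 76 and no count filter 72. Leaving out 1 library gave 1 to 76 in all (lowest with KO replicate 1 left out, highest with WT replicate 2 left out), 1 to 47 on the same strand, 0 to 20 on the opposite strand and 0 to 9 for both strands. The opposite-strand median ran from 0.21 (KO replicate 2 left out) to 0.28 in these fits. Without WT replicate 1 and KO replicate 3, the libraries with the most Alb counts, 3 were called (1, 2 and 0 by class). With a replicate block, 0 were called in all and in each class, and 0 pairs. Whether the shared numbers pair libraries is not known, since the check of pairing cannot decide it. Pair calls ran from 0 to 35 as 1 library was left out (4 with WT 3 out, 0 with KO 1 out, 23 with KO 2 out, 7 with KO 3 out). Fewer samples give less power in these fits. The cause of the other differences was not tested. The fold change of Armc5 stayed on its side of the threshold under every alternative run. Limits: 3 libraries a group, strand of counting not known, and transcripts of 1 gene not independent.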

Other observations

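Some unnamed transcripts shared 1 pattern over the 6 libraries that does not follow the groups. MSTRG.6324 (chromosome 11, genes on both strands) had 2142, 26446 and 7500 counts in WT and 5609, 1020 and 2222 in KO, so it was highest in WT replicate 2 and lowest in KO replicate 2 (adjusted p = 0.252). Of 18566 loci with 500 or more counts, 30 others had a Pearson r of at least 0.98 with it over the 6 libraries. Of these, 18 were unnamed, 10 of which overlap a named locus as above, and 12 were named. MSTRG.13751, whose span holds that of MSTRG.13752 over Filip1l, was one, with 2062, 22010 and 7565 against 5322, 948 and 2074 counts. MSTRG.6324 spans 81569 bases with 512 exon bases. Such r values describe 6 libraries and were chosen by their likeness, and carry no p.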
